A study of Homo sapiens with 12 samples.

Results

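OCI-LY3 and OCI-HBL1 are established human lymphoma lines of ABC-DLBCL, the activated B cell-like form of diffuse large B cell lymphoma. Their RNA levels were compared with 8 of the 12 expression arrays of the study, 4 of each line, chosen by the cell line label alone. Each line had 1 array under each of 4 treatments, and the arrays of both lines were paired by treatment label. Control cells are described no further. CPI203, an inhibitor of the BET proteins that read acetylated chromatin, was used at 500 nM, and IRAKi, an inhibitor of the IRAK kinases whose chemical identity is not stated, at 50 µM. Combo cells had both. By the labels IRAKi cells were taken at 6 h and all others at 24 h, whereas the protocol names 18 h of CPI203 and 6 h of IRAKi. The remaining 4 arrays are of OCI-LY10, another ABC-DLBCL line. Each line is a single established line, and nothing in the labels says that its arrays came from separate cultures. The p-values therefore measure only the spread of the difference between these 2 lines over the 4 treatments.

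ABC-DLBCL cells resemble B cells stopped between the germinal centre and the plasma cell. They depend on NF-kB signalling, which reaches the nucleus through the B cell receptor, PKC-beta, BCL10 and MALT1, and through MYD88 and the IRAK kinases. NF-kB in turn switches on IL6 and IL10, which act back on the cell through JAK kinases and STAT3. The study treated its lines with BET and IRAK inhibitors, and this comparison describes how 2 of those lines differ under each treatment.

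All values are log2 levels made by the authors with RMA, so a difference of 1 is 2-fold, and differences are OCI-LY3 minus OCI-HBL1. In the sentences below the 4 values of a line stand in the order Control, CPI203, IRAKi and Combo. Calls rest on limma with treatment as a block, at an adjusted p under 0.05. A standing difference was a called one in which all 4 pairs differed the same way by at least 1. The level of 4.20, the 40th percentile of all values, served as the filter, and a gene below it in a line is at or near the level of unspecific signal there. Its difference may then be understated.

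Correlations between arrays were 0.952 to 0.987 within OCI-LY3, 0.965 to 0.989 within OCI-HBL1 and 0.879 to 0.911 across the lines. The first component of the 8 arrays held 72.1% of the variation and parted the lines. The next held 15.6% and followed the treatments. The 3′ minus 5′ signal of the GAPDH controls was -0.17 to -0.02 in OCI-LY3 and -0.27 to -0.23 in OCI-HBL1, without overlap, while that of ACTB overlapped at 1.07 to 1.50 in OCI-LY3 and 1.11 to 1.37 in OCI-HBL1. The poly-A spike-ins averaged 10.47 to 11.21 in OCI-LY3 and 10.40 to 10.78 in OCI-HBL1. The part of these control signals in the results was not tested.

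The lines differed widely. Of 11888 autosomal genes tested, limma called 2987 (25.1%) higher and 2719 (22.9%) lower in OCI-LY3, in all 5706 (48.0%), and 6182 did not pass. Many calls were small, since 3737 called genes differed by less than 1. A standing difference was found for 1128 genes (9.49%), 641 of them higher (5.39%) and 487 lower (4.10%) in OCI-LY3, with a median size of 1.99. In 110 of these the difference was over 4, with 59 higher and 51 lower. The 4 OCI-LY3 levels lay wholly above the 4 OCI-HBL1 levels for 18.3% of tested genes and wholly below for 17.5%. Of the tested genes, 202 were above the filter level in no OCI-HBL1 array, 75 of them standing higher. Another 213 were above it in no OCI-LY3 array, 74 of them standing lower. Such genes passed the filter through the other line alone, so the direction of their difference was largely set beforehand. The median difference over all tested genes was 0.01. The 26 lists of genes by pathway or cell type held 606 genes, of which 480 were tested, 73 were below the filter and 53 were not analysed here. Just inside the limit of 1 were HUS1, whose smallest paired difference was 1.0006, and DDX59 at 1.002, and just outside were GJC1 at 0.99989 and TMEM218 at 0.9992.

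The B cell identity of both lines showed in MS4A1, which encodes CD20. It read 12.86, 12.23, 12.85 and 12.23 in OCI-LY3, against 12.43, 11.67, 12.29 and 12.01 in OCI-HBL1, with overlapping levels and a called difference of 0.44 ± 0.11 (SE, adjusted p = 0.014). The call was lost without the CPI203 arrays (adjusted p = 0.069) and without the IRAKi arrays (adjusted p = 0.064). Of the B cell markers, CD79A, CD79B, CD22 and PAX5 were also above the filter in both lines. Markers of other cells were mostly at the unspecific level. The mean was below 4.20 for 8 of 12 T and NK cell markers in OCI-LY3 and for 6 of them in OCI-HBL1, for 7 of 9 myeloid markers in OCI-LY3 and 8 in OCI-HBL1, and for 9 of 11 epithelial and stromal markers in OCI-LY3 and 7 in OCI-HBL1. The log2 of the summed T and NK marker levels was 7.62 to 7.81 in OCI-LY3 and 9.46 to 9.61 in OCI-HBL1. Of the 7 of these markers tested, 2 were called lower (28.6%, against 22.9% of all genes). GZMB, the gene of the cytotoxic protease granzyme B, was at 3.69, 3.64, 3.56 and 3.89 in OCI-LY3, against 9.01, 8.94, 9.09 and 9.11 in OCI-HBL1. The perforin gene PRF1 differed by -1.40 ± 0.22 (adjusted p = 0.0023). Among epithelial markers, EPCAM differed by -2.19 ± 0.27 and the endothelial adhesion gene PECAM1 by -2.72 ± 0.17, both lower in OCI-LY3, and the myeloid integrin gene ITGAM was higher by 1.60 ± 0.29. Their part in the other differences was not tested.

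**Figure D1:**
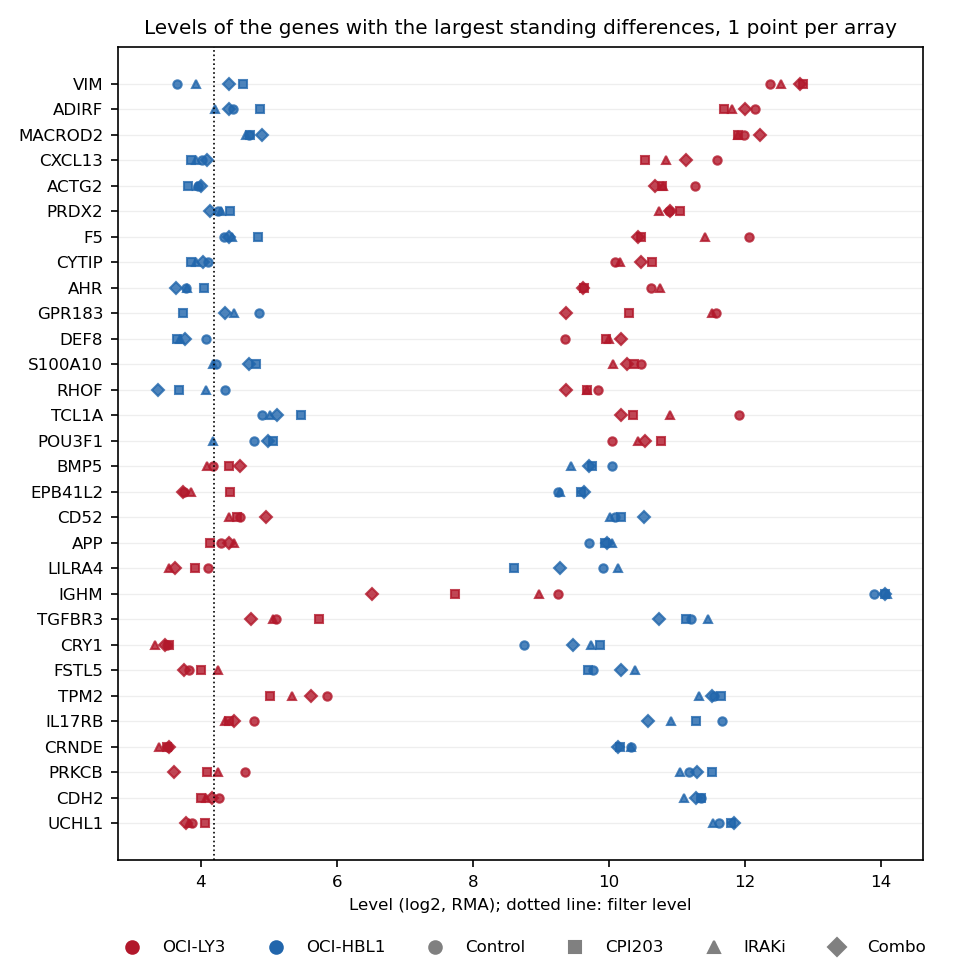
Log2 RMA level of the 15 genes with the highest and the 15 with the lowest mean standing difference, 1 point per array, OCI-LY3 in red and OCI-HBL1 in blue, with the marker shape giving the treatment. In each row the 4 points of one line lie apart from the 4 of the other.

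VIM, which encodes the intermediate filament protein vimentin, was at 12.37, 12.85, 12.53 and 12.81 in OCI-LY3, against 3.65, 4.62, 3.93 and 4.42 in OCI-HBL1. OCI-HBL1 was thus near the filter level on all 4 arrays, and the difference was 8.49 ± 0.12 (adjusted p = 2e-07). MACROD2, which encodes an ADP-ribosyl hydrolase, differed by 7.25 ± 0.10 (adjusted p = 2e-07) and ADIRF, a gene first described in fat cells, by 7.42 ± 0.16 (adjusted p = 8.6e-07). ACTG2, the smooth muscle gamma-actin, differed by 6.95 ± 0.13, but its other 4 probe sets above the filter gave 0.14 to 6.46.

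CXCL13, the chemokine that draws B cells into follicles, read 11.59, 10.54, 10.83 and 11.13 in OCI-LY3, against 4.02, 3.86, 3.93 and 4.10 in OCI-HBL1. All 4 OCI-HBL1 values are below the filter. GPR183, the oxysterol receptor that guides B cells to the outer follicle, was higher by 6.33 ± 0.31 (adjusted p = 1.8e-05). TCL1A, a coactivator of the kinase AKT, was higher by 5.71 ± 0.34, and AHR, the ligand-activated aryl hydrocarbon receptor, by 6.34 ± 0.24. The antioxidant peroxiredoxin gene PRDX2 was higher by 6.61 ± 0.10, the coagulation factor gene F5 by 6.57 ± 0.33 and the annexin A2 partner S100A10 by 5.81 ± 0.15. DEF8 at 6.08, RHOF at 5.77, CYTIP at 6.36 and POU3F1 at 5.69 complete the 15. The other probe sets of DEF8 gave 0.60 to 4.77, those of AHR 2.49 to 5.11, that of CYTIP 2.53 and that of POU3F1 1.50, the same direction with a smaller size.

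Among genes lower in OCI-LY3, UCHL1, the ubiquitin hydrolase abundant in neurons and in germinal centre B cells, was at 3.87, 4.06, 3.83 and 3.78 in OCI-LY3, against 11.62, 11.80, 11.53 and 11.84 in OCI-HBL1, a difference of -7.81 ± 0.11 (adjusted p = 2e-07). CDH2, which encodes N-cadherin, differed by -7.14 ± 0.11, the non-coding RNA CRNDE by -6.75 ± 0.11, the receptor gene IL17RB by -6.60 ± 0.16 and the clock repressor gene CRY1 by -6.00 ± 0.20. TPM2 at -6.05, a tropomyosin, FSTL5 at -6.04, TGFBR3 at -5.97, the TGF-beta co-receptor, and BMP5 at -5.42, a bone morphogenetic protein, were of like size. The other probe sets of TPM2 gave -6.01 to -1.64, those of TGFBR3 -5.81 to -2.73 and that of BMP5 -2.60. LILRA4 at -5.69, a receptor of plasmacytoid dendritic cells, APP at -5.58, EPB41L2 at -5.50 and CD52 at -5.58, the lymphocyte surface glycoprotein bound by alemtuzumab, were also lower in OCI-LY3. For APP the other 12 probe sets above the filter ran from -6.29 to -0.51. CD52 had paired differences of -5.64 to -5.52.

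In the B cell receptor pathway, PRKCB encodes PKC-beta, a kinase that passes on the receptor signal, and read 4.66, 4.10, 4.26 and 3.61 in OCI-LY3, against 11.17, 11.51, 11.04 and 11.29 in OCI-HBL1. The difference was -7.10 ± 0.21 (adjusted p = 2e-06), and its other 2 probe sets gave -6.23 and -3.50. IGHM, the receptor's IgM heavy chain, was at 9.26, 7.73, 8.98 and 6.52 in OCI-LY3, against 13.89, 14.05, 14.08 and 14.06 in OCI-HBL1. The OCI-HBL1 values lay close together, while those of OCI-LY3 were lowest with CPI203 and Combo, so the difference was -4.64 in Control and -7.55 in Combo. The signalling chains CD79A and CD79B were lower by -1.91 ± 0.14 and -1.50 ± 0.12, and the phospholipase gene PLCG2 by -1.02 ± 0.10. The transcription factor gene NFATC1 was lower by -3.29 ± 0.28 (adjusted p = 0.00017). Other members ran the opposite way. RASGRP1, a Ras activator, was higher by 3.98 ± 0.16, the inhibitory receptor CD22 by 2.64 ± 0.17, NFATC2 by 1.68 ± 0.12 and the kinase SYK by 1.06 ± 0.12. Over the list, 10 of 23 tested members were called higher (43.5%, against 25.1% of all genes) and 9 lower (39.1%, against 22.9%). The median was 0.12. Further down the pathway, MALT1 was lower by -0.67 ± 0.10 (adjusted p = 0.0018), though its other 3 probe sets gave 0.08 to 0.14 and the call was lost with the mean of all its probe sets (adjusted p = 0.46). BCL10 differed by -0.14 ± 0.13 and did not pass (adjusted p = 0.43).

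In the immunoglobulin list 5 of 9 tested members were called lower (55.6%, against 22.9% of all genes), all 5 standing. Only 1 was called higher (11.1%, against 25.1%). The median was -1.50, against 0.01 over all genes, and -3.86 with the filter at the 60th percentile. The 5 called lower were IGHM, CD79A and CD79B, already given with the receptor, and IGLL5 and JCHAIN. IGLL5, next to the lambda light chain locus, differed by -5.05 ± 0.20 and JCHAIN, which joins secreted IgM and IgA, by -3.86 ± 0.19. PIGR, the receptor that carries IgA and IgM across epithelia, was the one called higher, by 1.36 ± 0.16 (0.38 and 0.96 on its other probe sets). The heavy chain gene IGHA1 (means of 4.36 in OCI-LY3 and 4.84 in OCI-HBL1) was near the filter level in both lines. So were the light chain gene IGKC (4.45 in OCI-LY3 and 4.36 in OCI-HBL1) and the lambda-like gene IGLL1 (4.93 in OCI-LY3 and 4.96 in OCI-HBL1). None of them passed, although with median centring IGHA1 differed by -0.56 (adjusted p = 0.045). Of the 17 list genes 8 were not analysed here, the lambda light chain gene IGLC1 and the heavy chain genes IGHD, IGHG1, IGHG2, IGHG3, IGHG4, IGHA2 and IGHE. Whether OCI-LY3 carries one of these heavy chains was therefore not tested. Immunoglobulin genes share sequence with their neighbours, so a probe set may read several of them.

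The MYD88 and Toll-like receptor list had 10 of 22 tested members called higher (45.5%, against 25.1% of all genes). Another 7 were called lower (31.8%, against 22.9%). The list median of -0.10 turned to 0.43 with the filter at the 60th percentile. MYD88 was at 9.76, 8.89, 9.53 and 8.57 in OCI-LY3, against 9.27, 8.36, 8.76 and 7.97 in OCI-HBL1. The levels overlapped, and within treatments the lines differed by 0.60 ± 0.10 (adjusted p = 0.0034), but its other 3 probe sets gave -0.03 to 0.28, and with the mean of all its probe sets the call was lost (adjusted p = 0.098). TLR4 was lower by -2.52 ± 0.26, and so were LY86, the MD-1 partner of a Toll-like receptor relative, by -2.79 ± 0.15 and CNPY3, a chaperone of these receptors, by -2.64 ± 0.19. CD180, the receptor that LY86 binds, was higher by 1.91 ± 0.39, so receptor and partner differed in opposite directions.

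NF-kB subunits and targets were higher in OCI-LY3 as a list. Of 35 tested members limma called 24 higher (68.6%, against 25.1% of all genes) and 4 lower (11.4%, against 22.9%). Another 7 did not pass, and the median difference was 1.17. Of the 35, 1 was above the filter level in no OCI-HBL1 array. Promoters of 3 members are shown because their letters hold the kappaB motif, printed in capitals. The motif searched was GGG, any 2 bases and TTTCC, on both strands, so that it reads GGAAA, any 2 bases and CCC when it lies on the other strand. Each window of 300 bases spans the start of the gene in RefSeq (GRCh38.p14).
TNFAIP3, chr6:137867009-137867308, plus strand: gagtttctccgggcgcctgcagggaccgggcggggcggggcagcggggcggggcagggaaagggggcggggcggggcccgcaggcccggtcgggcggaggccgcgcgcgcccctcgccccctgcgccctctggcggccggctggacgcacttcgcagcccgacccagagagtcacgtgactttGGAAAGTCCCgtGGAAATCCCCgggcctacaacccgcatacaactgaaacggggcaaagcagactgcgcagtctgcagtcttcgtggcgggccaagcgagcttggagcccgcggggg
NFKBIA, chr14:35404700-35404999, minus strand: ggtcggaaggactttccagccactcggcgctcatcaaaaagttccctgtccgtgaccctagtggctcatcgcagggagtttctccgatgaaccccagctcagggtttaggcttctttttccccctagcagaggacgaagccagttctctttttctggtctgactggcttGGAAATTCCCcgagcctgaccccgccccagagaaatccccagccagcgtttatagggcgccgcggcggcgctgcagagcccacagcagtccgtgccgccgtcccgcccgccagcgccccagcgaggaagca
IL6, chr7:22726950-22727249, plus strand: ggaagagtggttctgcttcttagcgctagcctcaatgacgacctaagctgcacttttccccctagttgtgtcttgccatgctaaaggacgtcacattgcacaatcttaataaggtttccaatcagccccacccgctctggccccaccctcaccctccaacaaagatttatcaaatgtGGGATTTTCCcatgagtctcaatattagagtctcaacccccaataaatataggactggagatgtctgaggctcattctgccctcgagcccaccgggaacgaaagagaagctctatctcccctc
The motif was in 11 of the 31 tested list members with a promoter in the table (35.5%), against 2.91% of all 9712 tested genes with one. It was in 15 of 515 genes standing higher in OCI-LY3 (2.91%) and in 9 of 397 standing lower (2.27%). The list was made of NF-kB subunits and targets, so its share of 35.5% says nothing about the difference between the lines. Of the 11, NFKBIB was called lower, by -0.60, and NFKB2 and REL did not pass. The others, with the 3 shown, were called higher. A match describes letters and is not a shown binding site.

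Among the feedback inhibitors, TNFAIP3, which encodes the deubiquitinase A20 and holds 2 matches above, was at 11.15, 10.67, 11.29 and 10.90 in OCI-LY3, against 10.50, 10.23, 9.42 and 9.42 in OCI-HBL1. The levels did not overlap, and the difference was 1.11 ± 0.25 (adjusted p = 0.0093). NFKBIA, the IkB-alpha inhibitor, read 12.31, 12.97, 12.82 and 13.32 in OCI-LY3, against 11.56, 12.06, 10.93 and 11.95 in OCI-HBL1. It too was higher on every OCI-LY3 array, by 1.23 ± 0.20 (adjusted p = 0.0024). Against this, NFKBIE, another inhibitor of the family, was lower by -1.94 ± 0.22 (adjusted p = 0.00055) and NFKBIB by -0.60 ± 0.10.

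Of the subunits, NFKB1 was called higher by 0.90 ± 0.12 and RELB by 0.58 ± 0.14, whereas RELA at 0.01 ± 0.11 (adjusted p = 0.95), REL at 0.22 ± 0.20 (adjusted p = 0.4, and 0.04 without the Control arrays, where it was 0.47) and NFKB2 at 0.29 ± 0.18 (adjusted p = 0.24) did not pass. Among the targets, TRAF1, an adaptor of TNF receptors, was higher by 2.85 ± 0.37, the cytokine TNF by 2.32 ± 0.36, the adhesion molecule ICAM1 by 1.85 ± 0.23 and the survival gene BCL2A1 by 1.77 ± 0.16 (0.82 on its other probe set). IL12B, the p40 chain of IL-12 and IL-23, was at 9.79, 6.69, 9.80 and 6.66 in OCI-LY3, against 3.53, 3.25, 3.29 and 3.56 in OCI-HBL1. In OCI-LY3 the CPI203 and Combo arrays were well below the other 2, and OCI-HBL1 was below the filter on all 4. The difference was 4.83 ± 0.61 (adjusted p = 0.00092), and its other probe set gave 1.87. Other targets were lower or did not pass. The chemokine gene CCL3 was lower by -3.84 ± 0.57 and STAT5A by -1.52 ± 0.24. The chemokine gene CCL22 at -0.80 ± 0.34 (adjusted p = 0.091), the survival gene BCL2L1 at -0.74 ± 0.37 (adjusted p = 0.15), the stress-response gene GADD45B at 0.24 ± 0.14 (adjusted p = 0.2) and the lymphotoxin gene LTA at 0.21 ± 0.10 (adjusted p = 0.12) did not pass. With all 12 arrays in the fit CCL22 passed (adjusted p = 0.038), and with the mean of all its probe sets LTA was higher by 1.01 (adjusted p = 0.00039).

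**Figure D2:**
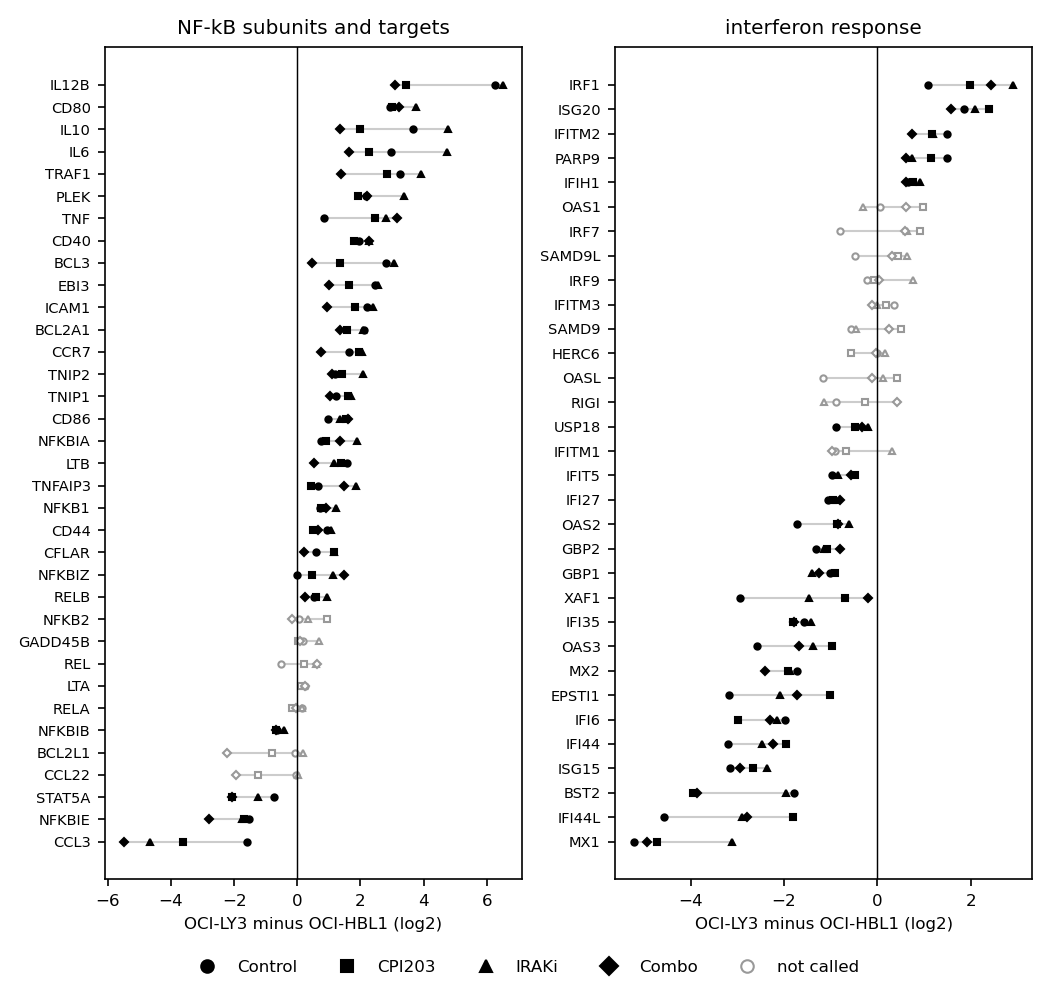
Paired differences, OCI-LY3 minus OCI-HBL1 in log2, of the tested members of the NF-kB list (left) and the interferon response list (right), 1 point per treatment and a line over their range, with members that were not called in open grey. Most NF-kB members lie right of 0, with 24 of 35 called higher, and most interferon members left of it, with 17 of 32 called lower. Of all tested genes, 25.1% were called higher and 22.9% lower.

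Among the cytokines that feed STAT3, IL6 read 7.17, 6.00, 8.71 and 5.58 in OCI-LY3, against 4.20, 3.71, 3.97 and 3.96 in OCI-HBL1. Every OCI-LY3 level was above every OCI-HBL1 level, most so with IRAKi, and the difference was 2.90 ± 0.46 (adjusted p = 0.0023), with 0.91 on its other probe set. IL10 was at 8.32, 6.08, 9.59 and 5.23 in OCI-LY3, against 4.67, 4.08, 4.81 and 3.88 in OCI-HBL1, with the same order of treatments, and differed by 2.94 ± 0.53 (adjusted p = 0.004).

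JAK-STAT genes and interleukin receptors followed, with 19 of 27 tested members called higher (70.4%, against 25.1% of all genes). Another 4 were called lower (14.8%, against 22.9%), and the median was 1.20. Of the 27, 3 were above the filter level in no OCI-HBL1 array and entered the test through OCI-LY3 alone. IL6, IL10, BCL3 and STAT5A are also members of the NF-kB list, so the counts of the lists overlap. STAT3 was at 11.63, 10.92, 11.30 and 11.01 in OCI-LY3, against 9.48, 9.75, 9.41 and 9.89 in OCI-HBL1. All 4 pairs differed by more than 1, with a mean of 1.58 ± 0.20 (adjusted p = 0.00086). SOCS3, the feedback inhibitor that STAT3 induces, was at 9.69, 8.21, 10.73 and 8.72 in OCI-LY3, against 4.15, 3.77, 3.90 and 3.59 in OCI-HBL1, where it never reached the filter. Its difference was 5.49 ± 0.35 (adjusted p = 5.1e-05), and its other probe set gave 1.73. The related SOCS2 was higher by 3.81 ± 0.55 and SOCS1 by 2.65 ± 0.16, with 0.74 on the other probe set of SOCS1. Among kinases, JAK3 was higher by 2.53 ± 0.14, JAK2 by 1.71 ± 0.17 and JAK1 by 0.80 ± 0.13, while the other 3 probe sets of JAK3 gave 0.28 to 0.73 and the mean of all 0.84. Of the receptors, IL2RB was higher by 2.07 ± 0.23 and IL6ST, the shared gp130 chain, by 1.28 ± 0.10. STAT5A ran against the list at -1.52 ± 0.24 (adjusted p = 0.0022), while STAT5B was higher by 1.36 ± 0.10.

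Interferon response genes were lower in OCI-LY3. Of 32 tested members limma called 17 lower (53.1%, against 22.9% of all genes), 9 of them standing. Another 5 were called higher (15.6%, against 25.1%), and the median was -0.64. Of the 32, 2 were above the filter level in no OCI-LY3 array. Promoters of 3 of those lower in OCI-LY3 are shown for the interferon-response motif, GAAA, any 2 bases and GAAA, on both strands (TTTC, any 2 bases and TTTC on the other), with matches in capitals in windows of the same length (RefSeq, GRCh38.p14).
MX1, chr21:41420308-41420607, plus strand: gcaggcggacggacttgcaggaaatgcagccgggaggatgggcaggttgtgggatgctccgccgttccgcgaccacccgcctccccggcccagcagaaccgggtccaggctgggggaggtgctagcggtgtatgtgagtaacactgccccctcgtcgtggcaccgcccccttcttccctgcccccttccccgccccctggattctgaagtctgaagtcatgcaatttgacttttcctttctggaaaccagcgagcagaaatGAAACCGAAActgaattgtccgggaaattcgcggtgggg
ISG15, chr1:1013247-1013546, plus strand: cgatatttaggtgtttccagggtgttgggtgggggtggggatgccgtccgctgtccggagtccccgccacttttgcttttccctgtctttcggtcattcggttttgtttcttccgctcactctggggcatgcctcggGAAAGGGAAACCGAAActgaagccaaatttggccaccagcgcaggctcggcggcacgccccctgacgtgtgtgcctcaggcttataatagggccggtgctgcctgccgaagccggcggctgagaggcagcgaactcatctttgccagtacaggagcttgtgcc
IFI6, chr1:27672143-27672442, minus strand: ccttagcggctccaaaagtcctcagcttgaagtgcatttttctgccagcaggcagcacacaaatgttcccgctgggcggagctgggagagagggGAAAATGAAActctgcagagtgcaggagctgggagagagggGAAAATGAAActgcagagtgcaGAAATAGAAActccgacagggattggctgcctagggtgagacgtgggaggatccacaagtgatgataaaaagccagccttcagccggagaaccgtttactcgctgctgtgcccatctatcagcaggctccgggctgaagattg
The motif was in 17 of 25 tested list members with a promoter in the table (68.0%), against 3.94% of all tested genes with one, and in 26 of 515 genes standing higher (5.05%) and 26 of 397 standing lower (6.55%). This list was made of interferon response genes, so its share of 68.0% says nothing about the difference between the lines. Of the 17, IFIH1, ISG20 and PARP9 were called higher and IFITM1, IFITM3 and SAMD9 did not pass. The others were called lower. The 2 matches of ISG15 overlap each other.

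MX1, a GTPase that blocks virus replication, was at 5.48, 4.25, 6.76 and 4.38 in OCI-LY3, against 10.69, 8.97, 9.88 and 9.32 in OCI-HBL1. The lines were apart under each treatment, with a mean difference of -4.50 ± 0.33 (adjusted p = 9.3e-05). ISG15, a ubiquitin-like modifier, read 6.50, 6.49, 6.79 and 6.39 in OCI-LY3, against 9.66, 9.16, 9.16 and 9.34 in OCI-HBL1, with little spread over treatments and a difference of -2.79 ± 0.15. IFI6 was lower by -2.35 ± 0.18, IFI44L by -3.02 ± 0.39, IFI44 by -2.47 ± 0.20, MX2 by -1.97 ± 0.14 and BST2, the tetherin that holds virions at the cell surface, by -2.89 ± 0.41. The 5 called higher included ISG20, an exonuclease, by 1.98 ± 0.15 and the transcription factor IRF1 by 2.10 ± 0.28, whose other 3 probe sets gave -0.08 to 1.59.

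MHC class II genes were mostly higher in OCI-LY3, with 13 of 18 tested members called higher (72.2%, against 25.1% of all genes). Only 1 was called lower (5.6%, against 22.9%), and the median was 1.23. CIITA, the master regulator of the class, was higher by 1.36 ± 0.11 (adjusted p = 0.00014), CD74, the invariant chain, by 1.78 ± 0.11, and the promoter-binding factors RFX5 and RFXANK by 1.30 ± 0.13 and 1.19 ± 0.11. HLA-DRA, the alpha chain of HLA-DR, differed by 1.18 ± 0.10. HLA-DQB1 was the exception at -4.22 ± 0.21. Classical HLA genes vary in sequence between people. The other probe sets of HLA-DPB1 gave -3.10 to 7.59, those of HLA-DQA1 -3.51 to 7.05 and those of HLA-DQB1 -2.35 to 0.40, so single HLA genes are uncertain. In class I, HLA-C read -2.43 ± 0.12 on its brightest probe set, but 0.30 and 6.41 on the other 2, and the mean of its probe sets gave the opposite direction, 1.43 (adjusted p = 5.9e-05). The peptide transporter TAP1 was higher by 1.66 ± 0.15, TAP2 was lower by -1.40 ± 0.14 with other probe sets at -1.37 to 0.76, and the peptidase ERAP2 was higher by 3.06 ± 0.36, with others at 0.41 to 3.45. The chaperone CALR, which helps load peptides, was lower by -1.16 ± 0.19.

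**Figure D3:**
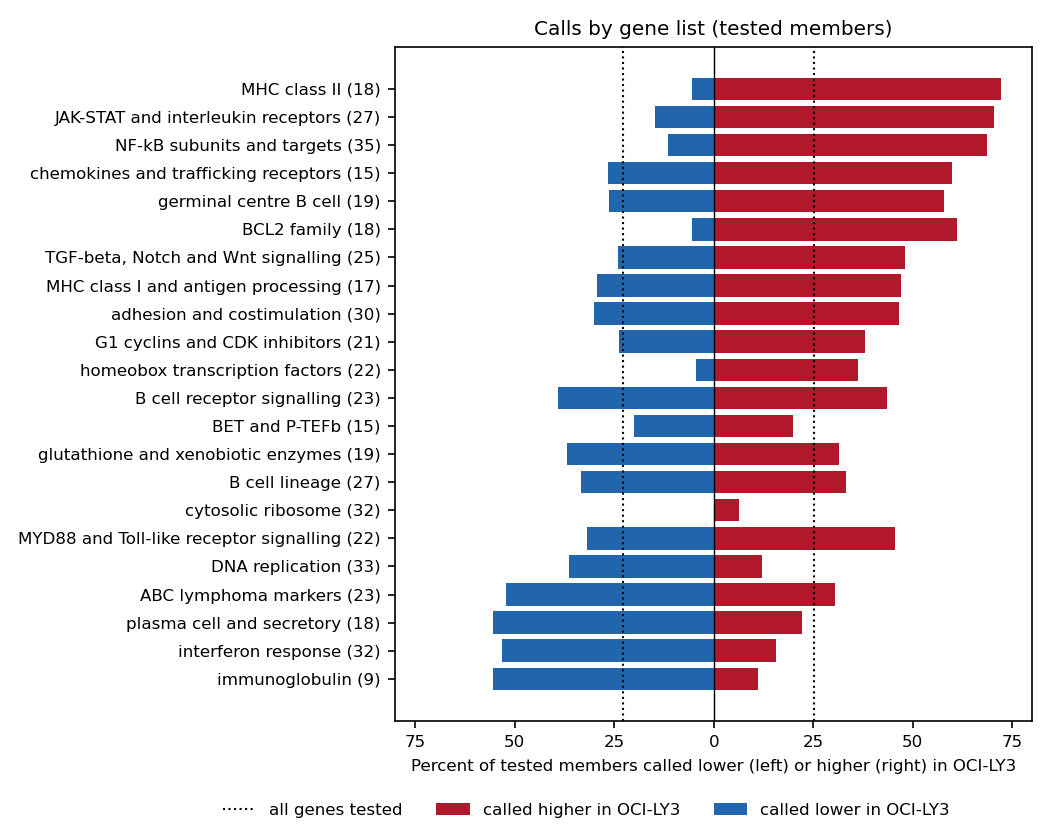
Percent of the tested members of each gene list called higher in OCI-LY3 (right, red) or lower in OCI-LY3 (left, blue), with the number tested in parentheses and dotted lines at 25.1% and 22.9%, the shares of all tested genes. Lists run by median difference, with MHC class II at the top (1.23) and immunoglobulin at the bottom (-1.50).

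Genes of the passage from germinal centre B cell to plasma cell differed in both directions. Germinal centre genes had 11 of 19 tested members called higher and 5 lower (57.9% and 26.3%, against 25.1% and 22.9% of all genes). The median of their mean differences was 0.81, and the median within treatments was 0.54 in Control, 0.54 with CPI203, 0.79 with IRAKi and 0.33 with Combo. BCL6, the repressor that holds cells in the germinal centre, was at 11.47, 11.00, 11.28 and 11.20 in OCI-LY3, against 9.83, 9.94, 9.68 and 9.75 in OCI-HBL1, a difference of 1.44 ± 0.13 (adjusted p = 0.00022). PRDM1, which encodes the plasma cell factor BLIMP1 and opposes BCL6, was at 10.69, 10.56, 11.24 and 10.22 in OCI-LY3, against 5.63, 5.62, 5.98 and 5.85 in OCI-HBL1. Both antagonists were therefore higher in OCI-LY3, PRDM1 by 4.91 ± 0.16 (adjusted p = 3.4e-06). BACH2, which represses PRDM1, read 4.71, 4.46, 4.72 and 4.82 in OCI-LY3, against 9.25, 8.54, 9.72 and 9.75 in OCI-HBL1. The difference was -4.64 ± 0.17, and its other probe set gave -2.37.

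Plasma cell and secretory genes nonetheless had 10 of 18 tested members called lower (55.6%, against 22.9% of all genes). Another 4 were called higher (22.2%, against 25.1%), and the median was -0.53. MZB1, a chaperone of IgM secretion, was lower by -4.15 ± 0.13, TNFRSF17, the BCMA receptor, by -2.25 ± 0.22 and XBP1, the unfolded protein response factor, by -0.83 ± 0.16. ELL2, the elongation factor for secretory IgH RNA, was higher by 1.63 ± 0.27. In the list of ABC lymphoma markers 12 of 23 were called lower (52.2%, against 22.9%) and 7 higher (30.4%, against 25.1%). The median was -0.45. IRF4 was higher by 1.22 ± 0.26 and BATF by 1.43 ± 0.22, CCND2 was lower by -2.26 ± 0.18, FUT8 by -2.65 ± 0.12 and IL16 was higher by 3.73 ± 0.26. FOXP1 at 0.07 ± 0.12 (adjusted p = 0.68) did not pass. Of 27 B lineage genes 9 were called each way (33.3%, against 25.1% of all genes higher and 22.9% lower). PAX5 at 0.07 ± 0.21 (adjusted p = 0.82) and SPIB at -1.03 ± 0.47 (adjusted p = 0.12) did not pass. Without the Control arrays, however, SPIB differed by -1.56 (adjusted p = 0.019). CD24 was higher by 1.87 ± 0.21 and CD72 lower by -2.74 ± 0.26. The Fc receptor-like genes FCRL2 and FCRL3 were lower by -2.50 ± 0.17 and -2.45 ± 0.32. The other probe sets of FCRL2 gave -1.06 to -0.40.

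Of 15 tested chemokines and trafficking receptors 9 were called higher (against 25.1% of all genes) and 4 lower (against 22.9%). The share called lower was thus close to that of all genes. The median was 0.99, but 0.10 over all measured members without the filter. Besides CXCL13 and GPR183, the receptor CXCR4 was higher by 1.86 ± 0.15, CCR7 by 1.59 ± 0.22 and CCR10 by 2.13 ± 0.28, and S1PR1, the receptor for exit from lymphoid tissue, was lower by -2.21 ± 0.41. Among 30 adhesion and costimulation genes 14 were called higher (against 25.1% of all genes) and 9 lower (against 22.9%). CD80, a ligand of CD28, was at 8.94, 7.40, 8.84 and 7.51 in OCI-LY3, against 6.01, 4.42, 5.07 and 4.29 in OCI-HBL1. It was lower on the CPI203 and Combo arrays of both lines. The paired differences stayed between 2.93 and 3.76, with a mean of 3.23 ± 0.16, and its other probe sets gave 1.22 to 1.96. ITGAX, the CD11c integrin, was higher by 3.40 ± 0.29, though its other 3 probe sets gave 0.10 to 0.72, and CD40 was higher by 2.08 ± 0.12.

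The BCL2 family had 11 of 18 tested members called higher (61.1%, against 25.1% of all genes) and 1 lower (5.6%, against 22.9%). The median was 0.62. BCL2 itself did not pass at 0.23 ± 0.14 (adjusted p = 0.21). MCL1, a protector, was higher by 1.21 ± 0.15. Death-promoting members were higher too, BBC3 by 1.37 to 2.54 in the 4 pairs (adjusted p = 0.00042), BAX by 1.59 ± 0.17 and BID by 1.55 ± 0.16. The other probe set of BBC3 gave 0.56 and that of BAX 0.84. BIK, another death-promoting gene, was the one called lower, at 5.18, 5.88, 5.70 and 5.85 in OCI-LY3, against 9.23, 9.11, 9.20 and 9.57 in OCI-HBL1. Among G1 regulators, CCND1 was higher by 2.37 ± 0.28 on its brightest probe set (0.51 to 0.74 on the others), opposite to CCND2 above. MYC was at 11.90, 11.07, 11.39 and 9.73 in OCI-LY3, against 11.77, 11.25, 11.51 and 10.85 in OCI-HBL1, and did not pass at -0.32 ± 0.21 (adjusted p = 0.25). Its levels overlapped between the lines, and the paired difference was largest in Combo, at -1.12.

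Of 32 cytosolic ribosome genes limma called 2 higher (6.25%, against 25.1% of all genes) and 0 lower (against 22.9%). At an unadjusted p below 0.05, 2 were lower, and the median was -0.04. DNA replication genes had 12 of 33 called lower (36.4%, against 22.9% of all genes) and 4 higher (12.1%, against 25.1%), with a median of -0.12, of which MCM6 alone was standing, at -1.58 ± 0.10. Of 15 BET and P-TEFb genes 3 were called each way (20.0%, against 25.1% of all genes higher and 22.9% lower). The drug target BRD2 at 0.16 ± 0.11 (adjusted p = 0.26) and HEXIM1 at -0.17 ± 0.18 (adjusted p = 0.49) did not pass, and BRD3 was higher by 0.61 ± 0.10. Of 19 glutathione and xenobiotic enzymes 6 were called higher (31.6%, against 25.1%) and 7 lower (36.8%, against 22.9%). GSTP1, a glutathione transferase, was at 11.82, 11.84, 11.48 and 11.80 in OCI-LY3, against 8.33, 8.45, 8.55 and 8.93 in OCI-HBL1. Its other probe set gave 0.37. Homeobox genes had 8 of 22 called higher (36.4%, against 25.1%) and 1 lower (4.5%, against 22.9%). Those higher were led by HOXB2 at 3.35 ± 0.32 and HOXB3 at 2.26 ± 0.18. The other probe sets of HOXB3 gave only 0.25 and 1.00. Of 25 TGF-beta, Notch and Wnt genes 12 were called higher (48.0%, against 25.1%) and 6 lower (24.0%, against 22.9%). ID3, a BMP target, differed by -3.35 ± 0.31 and LEF1, a Wnt effector, by -2.57 ± 0.28. NOTCH2 differed by 2.10 ± 0.12 and its target DTX1 by -2.39 ± 0.13.

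**Figure D4:**
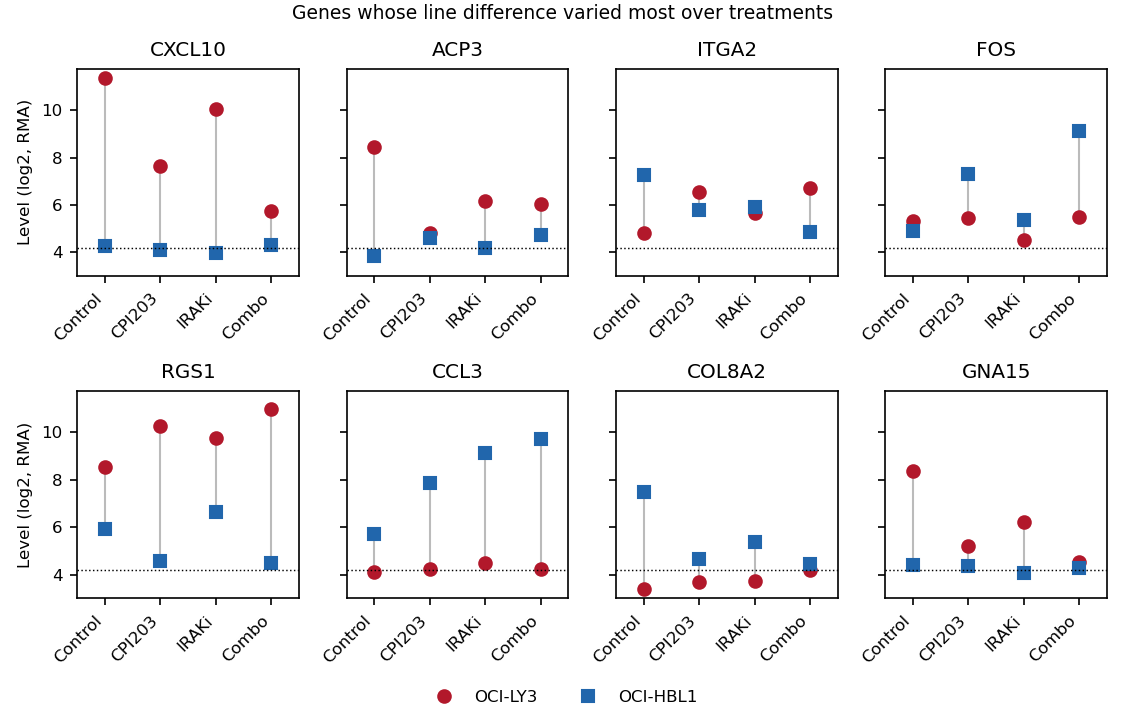
Log2 RMA level in OCI-LY3 (red circles) and OCI-HBL1 (blue squares) for the 8 genes whose line difference varied most over treatments, with grey lines joining each pair and the dotted line at the filter level of 4.20. CXCL10 shows the widest variation, a gap of 7.09 in Control and of 1.41 in Combo.

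The direction of the line difference was the same under all 4 treatments for 7089 genes (59.6%), among them 5599 of the 5706 called genes. The median span of a gene's 4 paired differences was 0.57, and 182 genes spanned over 2. Only 7 genes differed by at least 1 in each direction. CXCL10 spanned most. It was at 11.36, 7.66, 10.06 and 5.73 in OCI-LY3, against 4.28, 4.08, 3.97 and 4.32 in OCI-HBL1. Its level in OCI-LY3 was lower on the CPI203 and Combo arrays, while OCI-HBL1 was near the filter level on all 4, and the difference averaged 4.54 ± 0.86 (adjusted p = 0.0049). CCL3, an inflammatory chemokine, showed the reverse. It stayed at 4.10, 4.25, 4.48 and 4.25 in OCI-LY3, against 5.71, 7.86, 9.14 and 9.74 in OCI-HBL1, where every treated array was above Control. RGS1, a brake on chemokine receptors, was at 8.53, 10.29, 9.76 and 10.97 in OCI-LY3, against 5.94, 4.55, 6.66 and 4.48 in OCI-HBL1, so that the lines moved apart with CPI203 and Combo.

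FOS, which encodes an immediate early transcription factor, was at 5.31, 5.46, 4.54 and 5.48 in OCI-LY3, against 4.90, 7.30, 5.36 and 9.10 in OCI-HBL1. The paired difference was 0.42 in Control and -3.63 in Combo, and the mean of -1.47 ± 0.58 did not pass (adjusted p = 0.077). Without the Control arrays it was -2.09 and passed (adjusted p = 0.016). ITGA2, a collagen receptor, was at 4.83, 6.57, 5.67 and 6.71 in OCI-LY3, against 7.28, 5.80, 5.92 and 4.86 in OCI-HBL1. It is one of the genes that changed order between the lines, and its mean of -0.02 ± 0.62 did not pass (adjusted p = 0.98). ACP3, GNA15 and COL8A2 complete the 8, each with its widest difference in Control, at 4.63, 3.97 and -4.08. All 3 were called, but the calls were lost without the IRAKi arrays, with adjusted p of 0.10, 0.11 and 0.11. With 1 array per line and treatment, none of these dependences on treatment was tested.

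**Figure D5:**
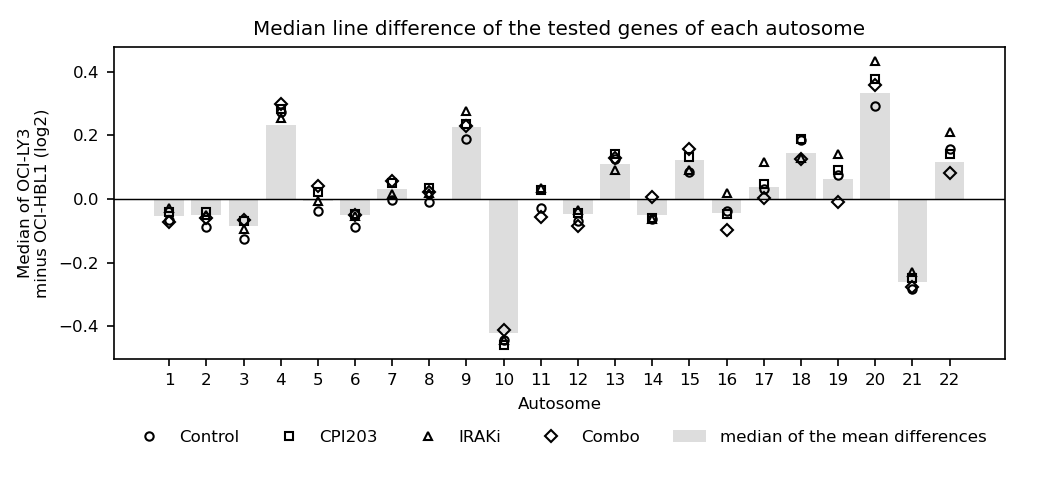
Median of OCI-LY3 minus OCI-HBL1 (log2) over the tested genes of each autosome, with 1 open symbol per treatment and a grey bar for the median of the mean differences. Chromosome 10 is lowest at -0.42 and chromosome 20 highest at 0.33, and the 4 treatments lie close together on each.

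The differences were spread unevenly over the chromosomes. On chromosome 10 the median over 464 tested genes was -0.42, with 9 genes standing higher and 50 lower. It ran from -0.46 to -0.41 over the 4 treatments. Its 3 largest standing differences were those of VIM and ADIRF, against the chromosome's direction, and of MGMT, the repair gene for alkylated guanine, at 3.80, 4.23, 3.75 and 3.74 in OCI-LY3, against 8.13, 8.14, 8.37 and 8.44 in OCI-HBL1. Chromosome 20 had the highest median, 0.33 over 340 genes, with 40 standing higher and 5 lower. Its leading genes after MACROD2 were TGM2, a transglutaminase, at 5.27 ± 0.17 (1.09 to 1.42 on its other probe sets) and TCFL5 at 3.74 ± 0.14. Chromosome 21 had a median of -0.26, with 2 of 142 standing higher and 10 lower, led by APP, MX1 and TIAM1 at -3.93 ± 0.18 (-0.39 on its other probe set). On chromosome 4, 53 of 419 genes stood higher and 22 lower, at a median of 0.23, and chromosome 18 had 20 higher and 9 lower of 173. Over all autosomes, 5.39% stood higher and 4.10% lower. The medians depend on the filter, since without it those of chromosomes 10, 20 and 21 were -0.15, 0.10 and -0.10.

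Medians over 30 neighbouring tested genes, in 11250 overlapping windows, had 5th and 95th percentiles of -0.47 and 0.48. The windows farthest from 0 that did not overlap were picked after their values were seen and are a description only. Their many calls follow from that choice. Of all tested genes, 25.1% were called higher and 22.9% lower. The highest lay on chromosome 11 from SLC37A2 to VPS26B, with a median of 1.08 and 21 of 30 genes called higher. The lowest lay on chromosome 19 from ZNF577 to ZNF845, among zinc finger genes, with a median of -1.05 and 22 called lower. On chromosome 6, from MRPS10 to XPO5, the median was -0.95 and 21 were called lower. On chromosome 4, from UTP3 to ANTXR2, it was 0.95 with 25 called higher, a stretch that holds CXCL9, CXCL10 and CXCL13. On chromosome 20, from NEURL2 to PARD6B, it was 0.94 with 22 called higher, including CD40 and the phosphatase PTPN1, and on chromosome 18, from EMILIN2 to CEP192, it was 0.94 with 20 called higher. All of these medians kept their sign in each of the 4 treatments.

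The third line, OCI-LY10, was set beside the pair. Of the 641 genes standing higher in OCI-LY3, the OCI-LY10 mean was within 1 of OCI-LY3 alone for 251 and of OCI-HBL1 alone for 219, within 1 of both for 64 and of neither for 107. Of the 487 standing lower, it was near OCI-LY3 alone for 230, near OCI-HBL1 alone for 129, near both for 47 and near neither for 81. VIM averaged 12.72 in OCI-LY10 and PRDM1 10.79, close to OCI-LY3, and UCHL1 averaged 4.07 and CDH2 4.11, also close to OCI-LY3. By contrast AHR averaged 3.90 in OCI-LY10 and SOCS2 3.92, like OCI-HBL1, and so did IGHM at 13.54. PRKCB at 9.23 and BACH2 at 7.12 lay between the pair. For these genes the distance from OCI-LY10 was not tested.

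The list members BCL2L1, BID, CCL22, CCR10, CCR7, CD74, CIITA, CXCR4, GADD45B, HLA-DQA1, HLA-DRA, ICAM1, IFI44, IFI6, IGHA1, IGKC, IGLL1, IL2RB, IL6ST, JAK1, JAK2, JAK3, LTA, MX2, PIGR, PLCG2, RFX5, RFXANK, SOCS1, STAT5B, TNF and TRAF1 were named after their values were seen. Within a gene the probe sets usually gave the same direction. Of the 1128 standing genes, 791 had a further probe set above the filter. In 761 of these all the others pointed the same way, and in 438 all differed by at least 1. Values of other probe sets are not printed for every named gene, and their absence does not mean that the sizes were alike. In 111 of the genes standing higher the OCI-HBL1 mean was below the filter level, and in 117 of those standing lower the OCI-LY3 mean was, so their differences may be understated.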

How the data were processed

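RNA of 3 cell lines under 4 treatments was hybridised to 12 Affymetrix arrays, and the 8 arrays of OCI-LY3 and OCI-HBL1 were compared. The deposited values are log2 levels, made by the authors with RMA in Affymetrix Expression Console 1.1, per the submitters' processing notes. RMA quantile-normalizes the arrays, so a shift shared by most genes of a line would not show. The annotation build behind the probe sets is not given in the sources used here.

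Of 49386 probe sets, 45253 carry 1 gene and were used, and 99.74% of the 18239 genes matched the reference gene annotation. For each gene the probe set of highest mean over the 12 arrays stood in, and the gene was tested if it exceeded a log2 level of 4.20 (40th percentile) in at least 3 of the 8 arrays. limma 3.58.1 (R 4.3.3, with data.table version 1.17.8) fitted line and treatment (3 residual and 3.72 prior degrees of freedom), two-sided, with Benjamini-Hochberg adjustment over 12330 genes. Then 424 genes on X or Y and 18 with no chromosome were left out. Other summaries used Python 3.11.15, pandas 2.3.3, numpy 2.4.6 and matplotlib 3.10.9. The SE is the moderated one. An exact test of 4 pairs alone cannot go below p = 0.125.

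The pairs come from the treatment label, and deviations of same-treatment arrays correlated between the lines (0.55, 0.40, 0.35 and 0.56). On simulated data for this comparison, 67 of 12330 genes were changed by 0.5, 67 by 1 and 66 by 2. The test found 7.463%, 71.64% and 96.97% of these in that order, and called 6 unchanged genes. Far fewer genes were changed there than the 5706 called in the data, and the adjustment depends on that share. These rates therefore need not hold for the comparison itself.

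The genes compared and the lists were chosen with earlier results of these data known. Genes were named by rule: the 15 highest and 15 lowest standing differences, up to 4 called members per list and direction, a fixed set of pathway genes, the 8 widest ranges of paired differences, and 3 genes on each of 3 autosomes. Not every gene so named is printed. The alternatives are given in the closing section. The number of arrays limits the precision.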

Additional observations from a re-analysis of the deposited data

Results flagged for a closer look

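For the named genes, the highest or lowest of the 4 paired differences (OCI-LY3 minus OCI-HBL1, log2) was set against the other 3. In 8 of 169 genes it stood apart from them by most of the whole range. Chance marks about 1 gene in 20 this way. With CPI203, ADIRF differed by 6.82, NFATC2 by 2.03 and RASGRP1 by 4.54, each set apart from the other 3 treatments. In Control, DEF8 differed by 5.29 and FCRL2 by -3.12. In Combo, IL16 differed by 2.64 and UCHL1 by -8.05. With IRAKi, NFKBIB differed by -0.43. In all 8 genes the 4 paired differences kept one sign.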

How the results depend on the processing

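The counts of called and of standing genes stayed within 1.5 times of those reported under all 12 alternatives. Called genes ranged from 2227 to 3142 higher and from 2035 to 3193 lower in OCI-LY3, and standing genes from 465 to 745 higher and from 387 to 585 lower. The lowest counts of called genes came with no replicate block (treatment left out of the model), at 2227 higher and 2035 lower, with 633 and 485 standing. The lowest counts of standing genes, 465 and 387, came with averaged probe sets. Leaving out each treatment in turn gave 2342 to 2803 called higher and 2144 to 2561 called lower. Of 153 called genes named in the text, 9 lost the call under at least 1 alternative. With no replicate block these were BATF, CD180, GNA15, MS4A1, MYD88 and TNFRSF17, with averaged probe sets MALT1 and MYD88, with trend and robust estimation ACP3, COL8A2 and GNA15, and with a treatment left out ACP3, COL8A2, GNA15 and MS4A1. FOS, REL and SPIB gained a call without the Control arrays, CCL22 with all 12 arrays, IGHA1 with median centring and LTA with averaged probe sets. HLA-C reversed to 1.43 with the mean of its probe sets. Of the 26 list medians, 8 took the other sign under some alternative, all with a reported median between -0.12 and 0.12, and of the 22 chromosome medians 6 did, all between -0.01 and 0.06. For levels below the filter in one line, the size of a difference is limited by unspecific signal.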
